A study of Homo sapiens with 6 samples.

Results

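The E2F transcription factors E2F1 to E2F8 and the DP partners TFDP1 and TFDP2 were followed in ACHN, a long-established human cell line derived from a renal adenocarcinoma. The members were taken by symbol, 10 of the 60409 rows of each deposited table, and all 10 passed the filter on low counts. The cells had received a negative control siRNA (NC), siMEX3A_1 or siMEX3A_2 by transfection, and were harvested after 48 h, giving 2 libraries in each of the 3 groups. The pair of active siRNAs is labelled as directed at MEX3A, which encodes an RNA-binding protein. By its title the study concerns G1/S progression and the RB/E2F pathway, to which these genes belong. Whether the libraries within a group are separate cultures is not stated in the labels. The p-values therefore reflect the spread among these libraries alone, and that spread may be technical.

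E2F proteins bind DNA in front of genes for DNA replication and cell cycle progression. E2F1, E2F2 and E2F3 are known as activators, held in check by the retinoblastoma protein until cyclin-dependent kinases phosphorylate it. E2F4 and E2F5 work mainly as repressors in resting cells together with pocket proteins, and E2F6 represses through Polycomb proteins without binding pocket proteins. All of these bind DNA as dimers with a DP protein, while the atypical members E2F7 and E2F8 carry a tandem DNA-binding domain, need no DP partner and repress E2F target genes, among them E2F1 itself.

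Library totals lay between 18825618 and 19158566 rounded counts. MEX3A, the targeted gene, had 94 and 109 counts with NC, 56 and 64 with siMEX3A_1, and 73 and 76 with siMEX3A_2. Its log2 fold change was -0.71 with siMEX3A_1 (edgeR adjusted p = 0.00655) and -0.42 with siMEX3A_2 (edgeR adjusted p = 0.0644), and in the authors' deposited tables neither passed (adjusted p = 0.137 and 0.392). The kidney factor gene PAX8 was present at 550 to 851 CPM (counts scaled to a common library size) and the epithelial keratin gene KRT8 at 600 to 1460 CPM. Of 6 leukocyte markers, PTPRC and CD3E, which define leukocytes, had at most 2 and 0 counts in any library, and CD68, which is not restricted to leukocytes, had 296 to 607. The summed leukocyte markers were at 17.1 to 17.7 CPM with NC, 30.8 to 32.8 with siMEX3A_1 and 30.4 to 32.4 with siMEX3A_2, nearly all of it CD68. The 8 mesenchymal markers, mainly VIM, summed to 1760 CPM with NC, 3720 to 3930 with siMEX3A_1 and 2340 to 2350 with siMEX3A_2. Of the 5 tested, VIM alone rose with either siRNA, COL1A1 fell by 0.81 on the log2 scale with siMEX3A_1, and the medians were -0.25 and -0.31. Whether either has a part in the changes below was not tested.

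With either siRNA the family split instead of moving as a block. E2F1, E2F2, E2F8 and E2F4 fell, E2F7 rose about as far with one siRNA as with the other, and E2F3 rose a little. Against NC, 3 members rose and 5 fell with siMEX3A_1, and 3 rose and 5 fell with siMEX3A_2, at a Benjamini-Hochberg adjusted p under 0.05 in edgeR's quasi-likelihood test over 18583 genes. Among all genes tested, 52.9% were called with siMEX3A_1 and 50.9% with siMEX3A_2. The median log2 fold change of the 10 members was -0.42 with siMEX3A_1 and -0.18 with siMEX3A_2, beside -0.01 and -0.00231 over all genes tested. Both comparisons use the same NC libraries. In the authors' deposited tables the same 8 members passed with siMEX3A_1, and 7 passed with siMEX3A_2, without E2F5. The share of cells in each cell cycle phase and the RNA level per cell cannot be told apart in these bulk libraries.

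**Figure D1:**
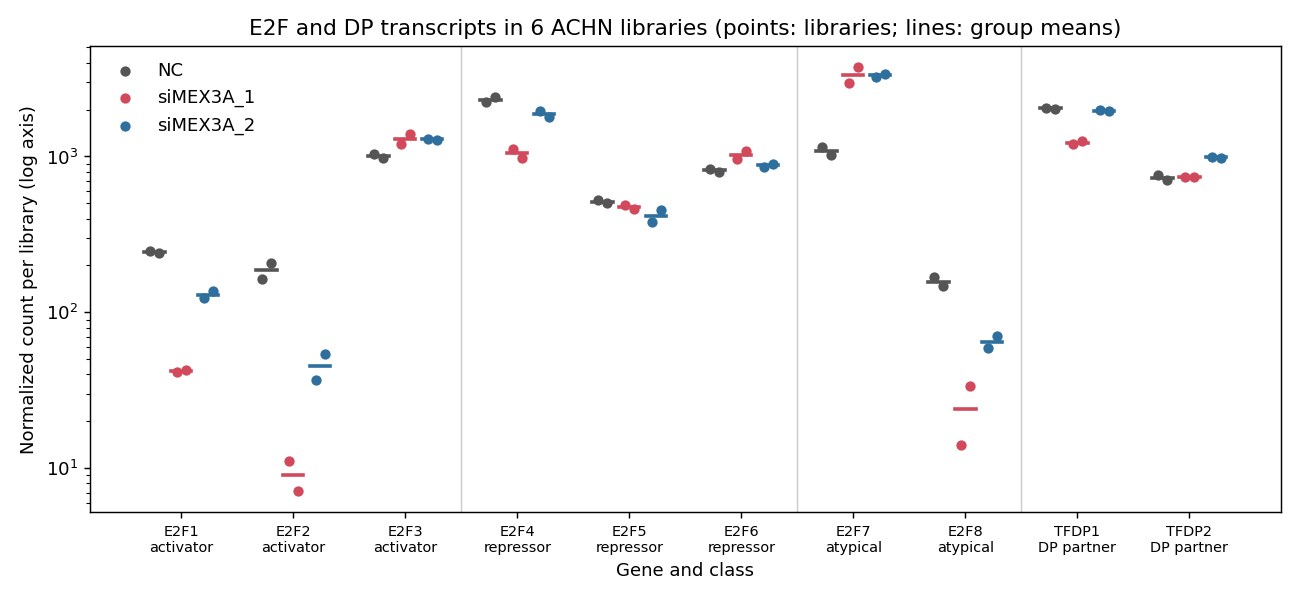
Normalized counts (log axis) of the 10 members in the 6 libraries. Points are libraries, horizontal lines are means of 2 libraries, and grey lines divide activators, repressors, atypical members and DP partners. E2F1, E2F2, E2F4 and E2F8 step down from NC to siMEX3A_2 to siMEX3A_1, while E2F7 is high in all 4 siRNA libraries.

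Of the activators, E2F1 and E2F2 fell and E2F3 rose, with both siRNAs. E2F1, which drives entry into S phase, had 249 and 247 counts with NC, 123 and 136 with siMEX3A_2, and 41 and 42 with siMEX3A_1. The 3 groups did not overlap, and the libraries of a group lay close together. Its log2 fold change was -2.53 with siMEX3A_1 (SE 0.14, edgeR adjusted p = 4.64e-07), or 17.3% of NC, and -0.91 with siMEX3A_2 (SE 0.12, adjusted p = 0.000174), or 53.1% of NC. The direct difference of siMEX3A_1 from siMEX3A_2 was -1.62 (SE 0.15, adjusted p = 1.49e-05).

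E2F2, a close relative of E2F1 with overlapping roles, had the largest log2 fall of the 10 members with either siRNA. It had 166 and 213 counts with NC, 37 and 54 with siMEX3A_2, and only 11 and 7 with siMEX3A_1. The groups were again separate, in the order NC, siMEX3A_2, siMEX3A_1. The log2 fold change was -4.33 with siMEX3A_1 (SE 0.29, 95% interval -4.99 to -3.67, edgeR adjusted p = 1.51e-06) and -2.03 with siMEX3A_2 (SE 0.22, adjusted p = 5.34e-05). None of its 6 deposited values was whole to within 0.001, which was also so for E2F5, E2F6 and TFDP2, so some of their reads were shared out between features.

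E2F3, whose row joins the transcripts known as E2F3a and E2F3b from separate starts, went the other way. It had 1050 and 1000 counts with NC, 1195 and 1368 with siMEX3A_1, and 1300 and 1277 with siMEX3A_2. Every siRNA library was above both NC libraries, and the siRNA groups overlapped each other. The log2 fold change was 0.37 with siMEX3A_1 (SE 0.08, edgeR adjusted p = 0.0034) and 0.35 with siMEX3A_2 (SE 0.08, adjusted p = 0.0046). The difference between the siRNAs was 0.01 with a 95% interval from -0.16 to 0.19, which leaves room for a modest difference either way.

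The bases before the starts of the activator genes are shown because these genes carry E2F-type words yet moved in opposite directions, and those of E2F7 because it rose most. Since the E2F3 row joins transcripts from separate starts, the counts cannot tell from which start the rise came. The sequences are from RefSeq on GRCh38.p14, a later build than that of the files (GRCh37 and hg19 per the submitters' processing notes), and each ends at the base before the annotated start. E2F1 is chr20:33686386-33686535 on the minus strand, E2F2 is chr1:23531234-23531383 on the minus strand, E2F3 (its upstream start) is chr6:20401729-20401878 on the plus strand, and E2F7 is chr12:77065570-77065719 on the minus strand. Capitals mark matches on either strand to TTTCCCGC, TTTCGCGC, TTTGCCGC or TTTGGCGC, the classical E2F word, and to TTTCGCGG, which was added after the sequences had been read. A match on the opposite strand shows as its reverse complement.
E2F1: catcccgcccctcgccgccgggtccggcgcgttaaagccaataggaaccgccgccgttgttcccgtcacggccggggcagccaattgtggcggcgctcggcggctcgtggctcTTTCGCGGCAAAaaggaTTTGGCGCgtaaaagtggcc
E2F2: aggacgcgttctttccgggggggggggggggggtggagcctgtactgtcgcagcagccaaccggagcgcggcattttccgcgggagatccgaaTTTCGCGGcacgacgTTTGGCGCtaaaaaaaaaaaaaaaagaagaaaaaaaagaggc
E2F3: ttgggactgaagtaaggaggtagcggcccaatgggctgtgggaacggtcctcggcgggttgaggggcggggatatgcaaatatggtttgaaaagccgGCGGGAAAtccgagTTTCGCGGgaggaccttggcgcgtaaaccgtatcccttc
E2F7: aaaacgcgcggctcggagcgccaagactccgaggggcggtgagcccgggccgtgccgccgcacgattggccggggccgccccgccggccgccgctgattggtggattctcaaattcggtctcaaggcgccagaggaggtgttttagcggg

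Of 10 members, 8 had an entry in the RefSeq promoter table, and E2F5 and E2F8 had none. In the 250 bases before the start, E2F1 held TTTGGCGC from 20 to 13 bases before it and TTTGCCGC on the opposite strand from 33 to 26 bases before it, the latter overlapping TTTCGCGG. E2F2 held TTTGGCGC from 42 to 35 bases before its start, and E2F3 held TTTCCCGC on the opposite strand from 53 to 46 bases before its upstream start. TTTCGCGG lay 37 to 30, 57 to 50 and 39 to 32 bases before the starts of E2F1, E2F2 and E2F3. TFDP1 held TTTCGCGC on the opposite strand, 120 to 113 bases before its start. No match lay in the windows of E2F4, E2F6 and E2F7, in the 3 windows of TFDP2 or in the downstream window of E2F3, which says only that these letters are not there. Of 35116 windows in the table, 2.79% held at least 1 of the 4 classical words and 0.342% held TTTCGCGG. The falling E2F1 and E2F2 and the rising E2F3, at its upstream start, share TTTCGCGG within the last 60 bases before the start. Since TTTCGCGG was picked by reading these sequences, its sharing carries no weight, and the 0.342% cannot measure how unusual it is. A match is a description of letters, not of a bound site.

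Among the repressors, E2F4 fell clearly with siMEX3A_1, while its fall with siMEX3A_2 was small, as were the differences of E2F5 and E2F6 with either siRNA. E2F4, the main E2F of pocket protein complexes in resting cells, had 2253 and 2451 counts with NC, 1107 and 961 with siMEX3A_1, and 1952 and 1787 with siMEX3A_2. The siMEX3A_1 libraries were far below all others. Its log2 fold change was -1.14 with siMEX3A_1 (SE 0.08, edgeR adjusted p = 2.21e-06) and -0.31 with siMEX3A_2 (SE 0.08, adjusted p = 0.00916). The call with siMEX3A_2 ended without NC replicate 2 (-0.26, adjusted p = 0.0729) and without siMEX3A_2 replicate 2 (-0.23, adjusted p = 0.116). The direct difference was -0.83 (SE 0.08, adjusted p = 2.06e-05).

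E2F5, the other repressor that works with pocket proteins, had 530 and 514 counts with NC, 485 and 450 with siMEX3A_1, and 381 and 452 with siMEX3A_2. The siMEX3A_2 libraries were the most spread. It did not pass with siMEX3A_1 (-0.11, SE 0.09, edgeR adjusted p = 0.331) and fell with siMEX3A_2 by 0.30 on the log2 scale (SE 0.09, adjusted p = 0.0211). That call ended with DESeq2 (adjusted p = 0.113), without siMEX3A_2 replicate 1 (-0.18, adjusted p = 0.196), without NC replicate 1 (adjusted p = 0.114) or 2 (adjusted p = 0.0526), and without a filter on low counts (adjusted p = 0.0509). In the authors' deposited table its adjusted p with siMEX3A_2 was 0.142. In GENCODE 29, E2F5 shares 969 exon bases with C8orf59 on the opposite strand, a gene with 302 to 357 counts. No source used here gives the strand setting, so reads of the pair may be mixed.

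E2F6, the Polycomb-linked repressor, had 839 and 819 counts with NC, 952 and 1057 with siMEX3A_1, and 861 and 900 with siMEX3A_2. All siRNA libraries were above NC, by little with siMEX3A_2. It rose with siMEX3A_1 by 0.32 on the log2 scale (SE 0.07, edgeR adjusted p = 0.00419) and did not pass with siMEX3A_2 (0.11, SE 0.07, adjusted p = 0.242). The difference of 0.21 between the siRNAs passed narrowly (adjusted p = 0.0342) and was lost in 8 of the 15 alternatives, among them DESeq2 (adjusted p = 0.112), library size as the only scaling (0.17, adjusted p = 0.0753) and the fit without siMEX3A_1 replicate 2 (0.13, adjusted p = 0.236). The pseudogene E2F6P1 was listed at 0 counts with NC and at 12.67 and 27.99 expected counts with siMEX3A_1. With pseudogene counts added, the rise of E2F6 with siMEX3A_1 was 0.35 (adjusted p = 0.00302).

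The atypical members went in opposite directions with both siRNAs. E2F7 had 1158 and 1055 counts with NC, 2907 and 3666 with siMEX3A_1, and 3237 and 3386 with siMEX3A_2. Every siRNA library was far above NC, and the siRNA groups overlapped. E2F7 went from 1089 ± 85.5 normalized counts with NC (SD, n = 2 libraries) to 3340 ± 566 with siMEX3A_1 and 3314 ± 108 with siMEX3A_2, which is 3.07-fold and 3.04-fold higher. The log2 fold changes were 1.62 (SE 0.11, edgeR adjusted p = 1.5e-06) and 1.61 (SE 0.11, adjusted p = 2.63e-06). The difference between the siRNAs was 0.01, with a 95% interval from -0.22 to 0.24.

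E2F8, the other member with a tandem DNA-binding domain, had 169 and 151 counts with NC, 14 and 33 with siMEX3A_1, and 59 and 70 with siMEX3A_2. As for E2F1 and E2F2, the order was NC, siMEX3A_2, siMEX3A_1 with no overlap. The log2 fold change was -2.72 with siMEX3A_1 (SE 0.29, edgeR adjusted p = 3.56e-05) and -1.29 with siMEX3A_2 (SE 0.25, adjusted p = 0.00197). The siMEX3A_1 libraries differed at these low counts, and the change was -2.21 without siMEX3A_1 replicate 1 and -3.46 without siMEX3A_1 replicate 2. The difference between the siRNAs was -1.43 (SE 0.32, adjusted p = 0.00411), -0.93 without siMEX3A_1 replicate 1 and -2.17 without siMEX3A_1 replicate 2. Per kilobase of transcript, the ratio of E2F7 to E2F8 was 4.20 and 4.28 with NC, 33.6 and 29.7 with siMEX3A_2, and 127 and 68.1 with siMEX3A_1.

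**Figure D2:**
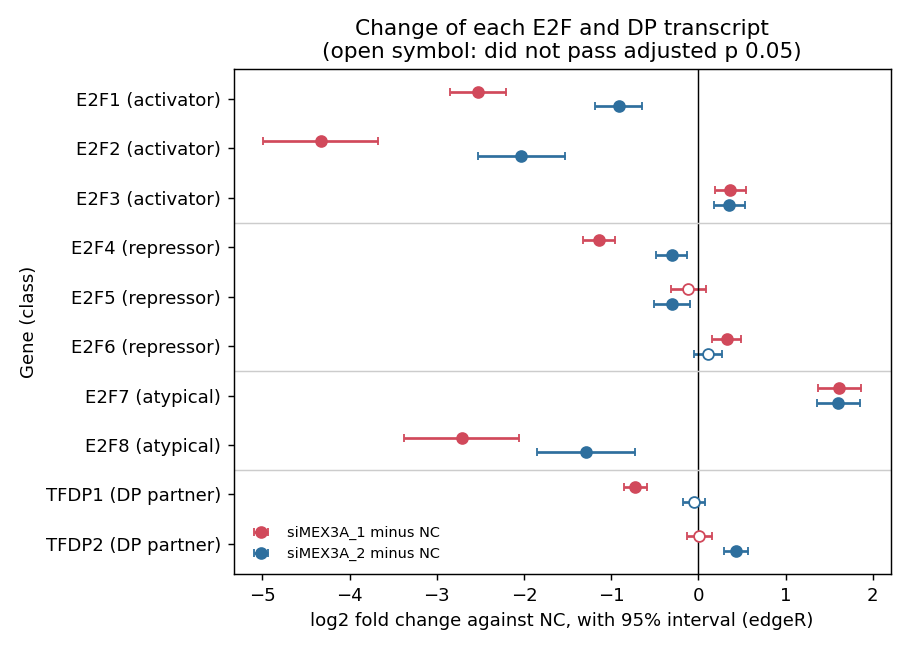
Log2 fold changes against NC with 95% intervals from edgeR, by member and class, for siMEX3A_1 and siMEX3A_2, each from 2 libraries against the same 2 NC libraries. Open symbols did not pass. E2F7 (1.62 and 1.61) and E2F8 (-2.72 and -1.29) stand on opposite sides of 0.

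The DP partners differed by siRNA. TFDP1, the main dimer partner of E2F1 to E2F6, had 2061 and 2068 counts with NC, 1193 and 1225 with siMEX3A_1, and 1974 and 1947 with siMEX3A_2. Only the siMEX3A_1 libraries were clearly lower. TFDP1 fell with siMEX3A_1 by 0.73 on the log2 scale (SE 0.06, edgeR adjusted p = 5.15e-06) and did not pass with siMEX3A_2 (-0.05, SE 0.06, adjusted p = 0.506). The direct difference was -0.68 (SE 0.06, adjusted p = 9.17e-06).

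TFDP2, the other DP partner, showed the reverse. It had 762 and 723 counts with NC, 726 and 726 with siMEX3A_1, and 994 and 978 with siMEX3A_2. The siMEX3A_1 libraries lay within the NC range and the siMEX3A_2 libraries above it. TFDP2 rose with siMEX3A_2 by 0.43 (SE 0.06, edgeR adjusted p = 0.000296) and did not pass with siMEX3A_1 (0.01, SE 0.06, adjusted p = 0.879). The direct difference was -0.42 (SE 0.06, adjusted p = 0.000325). The ratio of TFDP2 to TFDP1 per kilobase was 0.0993 and 0.0939 with NC, 0.164 and 0.159 with siMEX3A_1, and 0.135 with both siMEX3A_2 libraries. It was higher in all 4 siRNA libraries, with less TFDP1 after siMEX3A_1 and more TFDP2 after siMEX3A_2.

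By class, 2 of 3 activators fell and 1 rose with each siRNA (medians -2.53 with siMEX3A_1 and -0.91 with siMEX3A_2). Of the 3 repressors, 1 rose and 1 fell with siMEX3A_1 (median -0.11), and 2 fell and 0 rose with siMEX3A_2 (median -0.30). Of the 2 atypical members 1 rose and 1 fell with each siRNA. Of the 2 DP partners 1 fell with siMEX3A_1 and 1 rose with siMEX3A_2. No class other than the repressors with siMEX3A_2 and the DP partners held calls of 1 direction only. In the direct comparison of the siRNAs, 7 members were called, where 51.6% of all genes were. E2F1, E2F2, E2F4, E2F8, TFDP1 and TFDP2 were lower with siMEX3A_1, E2F6 was higher, and E2F3, E2F5 and E2F7 did not pass.

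Levels between genes were compared as CPM per kilobase of the longest basic protein-coding transcript in GENCODE 29. With NC, E2F4 was highest at 58.3 ± 2.73 (SD, n = 2 libraries), followed by TFDP1 at 40.5 ± 0.419. E2F5 (14.3 ± 0.493), E2F6 (12.5 ± 0.372), E2F3 (11.2 ± 0.529) and E2F7 (10.02 ± 0.786) formed a middle range, in which E2F3 and E2F7 differed by less than their summed SDs. The place of E2F5 there depends on the length used: per kilobase of all its annotated exons it was at 4.69 and 4.46 with NC, below E2F1 at 5.21 and 5.08. E2F1 (5.15 ± 0.0946), TFDP2 (3.91 ± 0.195), E2F8 (2.36 ± 0.218) and E2F2 (1.89 ± 0.309) were lowest, the last 2 within their summed SDs. With siMEX3A_1, E2F7 was at 27.0 and 34.4 and E2F4 at 28.2 and 24.7 CPM per kilobase, so that their libraries overlapped. With siMEX3A_2, E2F4 at 49.2 and 45.1 was above E2F7 at 29.8 and 31.2.

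The sum of E2F1 to E2F8 changed less than its make-up. It was 115 and 116 CPM per kilobase with NC, 98.3 and 105 with siMEX3A_1, and 121 with both siMEX3A_2 libraries. E2F7 held 9.17% and 8.15% of it with NC, 27.5% and 32.6% with siMEX3A_1, and 24.6% and 25.7% with siMEX3A_2. E2F4 held 48.8% and 51.8% with NC, 28.7% and 23.4% with siMEX3A_1, and 40.6% and 37.1% with siMEX3A_2. The repressors together held 72.6% and 74.4% with NC, 57.6% and 51.2% with siMEX3A_1, and 60.3% and 58.9% with siMEX3A_2. The make-up thus moved from E2F4 towards E2F7. The activators together held 16.0% and 15.5% with NC, 14.7% and 15.6% with siMEX3A_1, and 14.4% and 14.5% with siMEX3A_2. When the union of all annotated exons served as length, an alternative chosen after seeing the data, the activators' share was 22.5% and 21.98% with NC, 18.7% and 19.2% with siMEX3A_1, and 18.6% and 18.7% with siMEX3A_2. On that length E2F7 was at 24.6 and 31.3 CPM per kilobase with siMEX3A_1, above E2F4 at 16.5 and 14.4. With siMEX3A_2 the order of this pair was lost, since E2F4 was at 28.8 and 26.4 and E2F7 at 27.1 and 28.4.

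Within the activators, the share of E2F3 was larger in every siRNA library than with NC. It made up 62.7% and 60.1% of their sum per kilobase with NC, 82.9% and 80.6% with siMEX3A_2, and 93.2% and 94.1% with siMEX3A_1. E2F1 held 28.2% in both NC libraries and 6.06% and 5.48% with siMEX3A_1, and E2F2 went from 9.07% and 11.7% to 0.784% and 0.440%. These shares follow from the counts above and were not tested separately.

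**Figure D3:**
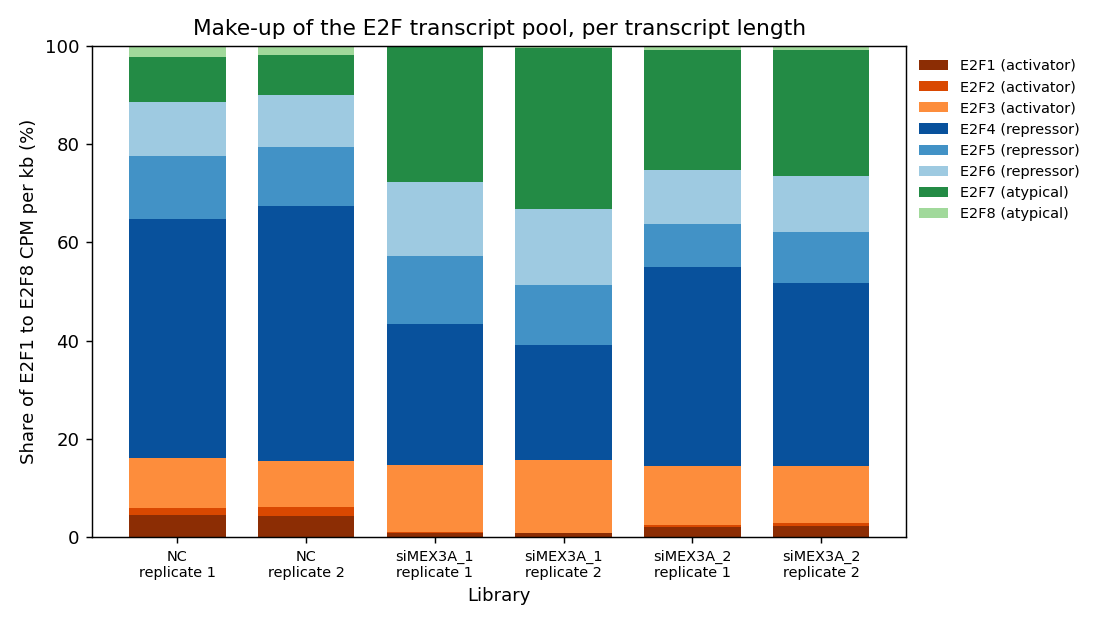
Share of each E2F gene in the sum of E2F1 to E2F8, as CPM per kilobase of the longest basic protein-coding transcript, in each of the 6 libraries. The dark green part, E2F7, is 9.17% and 8.15% in the NC libraries and between 24.6% and 32.6% in the siRNA libraries.

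Genes whose pattern over the 6 libraries was most like that of a member were found by the distance between centred log2 CPM values, among about 11138 genes. For E2F1 they were FANCI, PBK and UCP2 (distances 0.145 to 0.22), for E2F2 FAM111B, SCARA3 and VRK1 (0.702 to 0.968), and for E2F8 ANKRD46, MCM4 and LRIG1 (0.561 to 0.749). For E2F7 they were ZSWIM6, ABL2 and CPED1 (0.104 to 0.197), and for E2F3 AKAP9, GNA13 and SIK3 (0.0498 to 0.0624). For E2F4 the list was ITPRIPL1, MYBL2 and CASP2 (0.129 to 0.136), for TFDP1 ADSS, USP49 and PLPBP (0.061 to 0.0678), and for TFDP2 AHCYL1, ZNF384 and INSIG1 (0.0395 to 0.084). E2F5 was nearest to NOL12, MPHOSPH6 and NKIRAS1 (0.0727 to 0.104) and E2F6 to ST13, NAMPT and GK5 (0.0587 to 0.08). The distances are larger for the low-count members E2F2 and E2F8, whose libraries of a group differ more. Both also lie below the mean of 100 normalized counts required of the genes searched. What sets the size of these distances was not tested.

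Genes that E2F proteins are known to regulate in DNA replication fell with both siRNAs. Of 40, 40 fell with siMEX3A_1 (median log2 fold change -1.84) and 39 fell and 0 rose with siMEX3A_2 (median -0.71), where 25.9% and 25.7% of all genes were called lower. This list and those below were chosen with earlier results of these data known. Their counts are descriptions, not independent support. MCM5, a subunit of the replicative helicase, fell by 3.66 with siMEX3A_1, and MCM6 fell by 1.60 and MCM3 by 1.48, both of the same helicase, with siMEX3A_2. In the direct comparison 35 were lower with siMEX3A_1 and 2 higher, where 25.5% of all genes were called lower. E2F1, E2F2, E2F4 and E2F8, which fell with both siRNAs, were lower with siMEX3A_1 as well.

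A list of 10 genes held the pocket proteins, with which E2F4 and E2F5 act, the MuvB proteins, MYBL2 and FOXM1. Of these, 7 fell and 2 rose with siMEX3A_1, where 25.9% of all genes were called lower. With siMEX3A_2, 3 fell and 2 rose (medians -0.90 with siMEX3A_1 and -0.0006 with siMEX3A_2). With siMEX3A_2 the share called was near that of all genes, 50.9%. RBL2 (p130), the usual partner of E2F4 in resting cells, fell by 1.48 with siMEX3A_1 and rose by 0.51 with siMEX3A_2. RBL1 (p107) fell by 1.38 with siMEX3A_1 and was at -0.01 with siMEX3A_2 (edgeR adjusted p = 0.943). RB1 rose by 0.67 with siMEX3A_2 and did not pass with siMEX3A_1 (-0.19, adjusted p = 0.111). FOXM1, which drives mitotic genes, fell by 2.24 and by 0.37, and MYBL2, itself a known E2F target, fell by 1.05 and by 0.29.

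Of 10 genes of the G1/S kinase system, 9 cyclins and kinases and the phosphatase CDC25A, which activates such kinases, 8 fell with siMEX3A_1 and 6 with siMEX3A_2, and 0 and 2 rose (medians -0.92 and -0.49). Over all genes tested, 25.9% and 25.7% were called lower. Cyclin A2 (CCNA2) fell by 2.16 and 2.11 and CDC25A by 1.54 and 1.39. Cyclin D1 (CCND1) fell by 1.53 with siMEX3A_1 and rose by 0.22 with siMEX3A_2. Cyclin D3 (CCND3) fell by 0.33 with siMEX3A_1 and by 1.26 with siMEX3A_2. Of 6 tested CDK inhibitor genes, which hold these kinases back, 2 rose and 1 fell with siMEX3A_1, and 3 rose and 0 fell with siMEX3A_2. The share called was near that of all genes, 52.9% and 50.9%. CDKN1A (p21) rose by 1.60 and 0.82 and CDKN2B (p15) by 1.81 and 1.56, while CDKN1C (p57) fell by 3.18 with siMEX3A_1.

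Genes known to act on the turnover of E2F proteins, for or against it, fell in 4 of 5 with siMEX3A_1 and 3 of 5 with siMEX3A_2. None of the 5 rose, and 25.9% and 25.7% of all genes were called lower. CCNF, the cyclin F subunit of a ubiquitin ligase that targets several E2F proteins, fell by 2.25 with siMEX3A_1 and was at -0.15 with siMEX3A_2 (edgeR adjusted p = 0.124). SKP2 fell by 0.83 and 0.79. Of 10 Polycomb partners of E2F6, 6 rose and 4 fell with siMEX3A_1 and 4 rose and 4 fell with siMEX3A_2, where 52.9% and 50.9% of all genes were called in either direction. MAX rose by 1.07 and 1.09, and WDR5 fell by 1.99 and 0.68. Of 7 germline genes known as E2F6 targets 4 were tested. STAG3 fell by 0.39 with siMEX3A_1, and with siMEX3A_2 none of the 4 passed in edgeR.

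Apoptosis genes known as E2F1 targets moved in both directions with siMEX3A_1 and upward with siMEX3A_2. Of 7 tested, 3 rose and 2 fell with siMEX3A_1 (median 0.40), and 5 rose and 0 fell with siMEX3A_2 (median 1.00), where 27.0% and 25.2% of all genes were called higher. BBC3 rose by 2.03 and 1.71, while PMAIP1 fell by 0.42 with siMEX3A_1 and rose by 1.04 with siMEX3A_2. E2F7 is also known as a p53 target, and p53 target genes rose in 22 of 25 with siMEX3A_1 (2 fell) and in 20 of 25 with siMEX3A_2 (1 fell). Their medians were 0.89 and 0.53. BBC3 and CDKN1A stand in the p53 list too, and the part of p53 in the level of E2F7 was not tested. Of 10 E2F cofactors, 4 rose and 3 fell with siMEX3A_1 and 5 rose and 3 fell with siMEX3A_2, in mixed directions and beside 52.9% and 50.9% of all genes. ARID3A rose by 0.99 and 1.29.

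**Figure D4:**
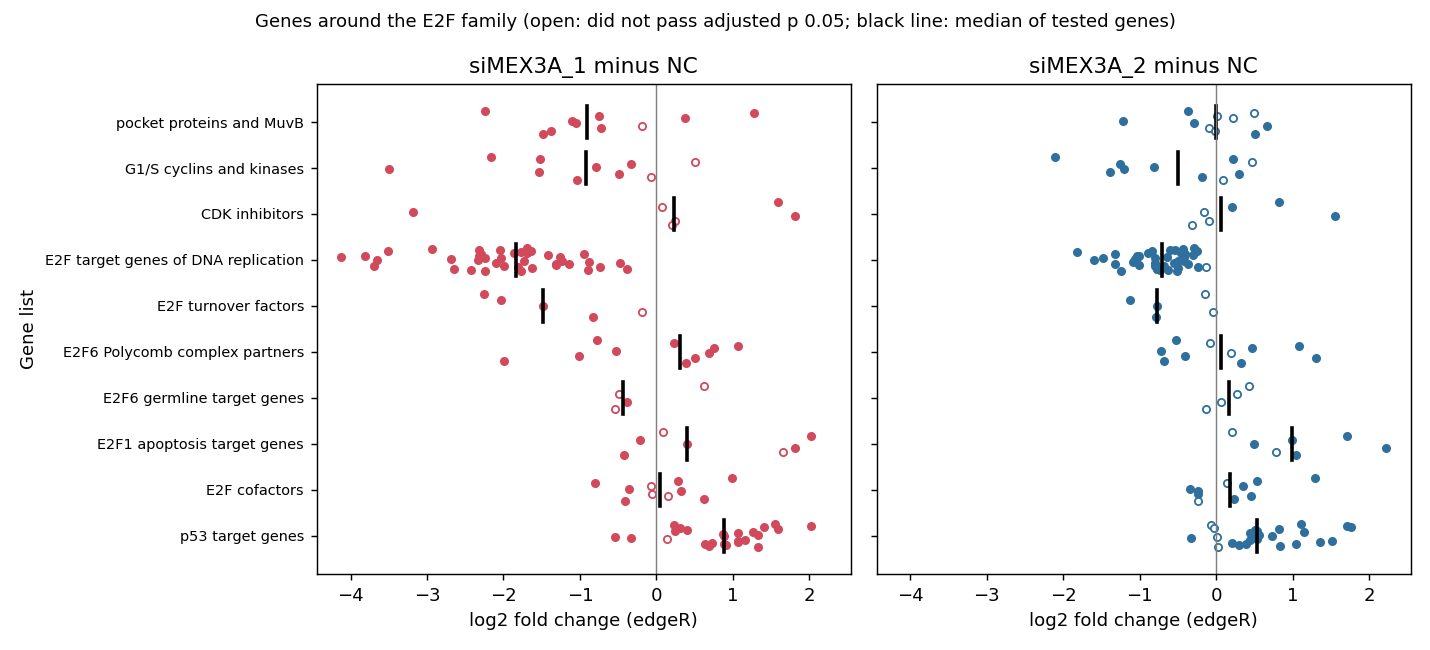
Log2 fold changes from edgeR of the tested genes of 10 lists around the E2F family, for each siRNA against NC. Points are genes, open points did not pass, and black lines are medians. The replication targets have medians of -1.84 and -0.71, and the p53 targets of 0.89 and 0.53.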

How the data were processed

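RNA of 6 ACHN libraries, 2 per group, was sequenced from single-end mRNA libraries, per the labels' protocols. The deposited tables give the authors' expected counts per gene, not normalized. The submitters' processing notes name STAR, RSEM, GRCh37 and hg19 with neither role nor version. The tables also hold the authors' comparison, per the file headers in DESeq2's column names: log2 fold change with its error, p-value and adjusted p-value, and a mean and a test statistic that were treated as scores of the authors.

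Expected counts were rounded and tested with edgeR 4.0.16 (R 4.3.3, limma 3.58.1): TMM scaling, default low-count filter, 1 spread estimate over 6 libraries, Benjamini-Hochberg over 18583 genes, called under 0.05. The biological coefficient of variation was 6.26%. Standard errors are the log2 fold change over the square root of F. Normalized counts are divided by TMM-scaled library size. Rows sharing a name (4481) stayed separate without a symbol. DESeq2 1.42.0 and the other alternatives are described in the closing section. On simulated counts, 89% (siMEX3A_1) and 93% (siMEX3A_2) of 100 genes with a true log2 change of 1 were called, and 57% and 51% at 0.5, with 18380 and 18348 genes tested. Only 100 genes per size of change were altered there, and every gene had the same biological coefficient of variation, 6.3%. In the data 52.9% and 50.9% of genes were called and the spread differed by group, so these rates need not hold. Replicates differed by more than sampling noise in every group, with a chi-square per degree of freedom of 2.39 to 5.62.

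All members were named, with up to 4 genes per list and comparison by lowest p, beside RB1, RBL1 and RBL2 and the 3 genes nearest to each member (mean of at least 100 normalized counts, prior count of 2). Some genes of the lists are not reported here by name. Members and lists were chosen with earlier results of these data known.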

Additional observations from a re-analysis of the deposited data

Results flagged for a closer look

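The effects of the siRNAs on 7 members differed in the direct test, siMEX3A_1 minus siMEX3A_2 (log2 scale, edgeR adjusted p under 0.05). The difference was -1.62 for E2F1, -2.30 for E2F2, -0.83 for E2F4, -1.43 for E2F8, -0.68 for TFDP1, -0.42 for TFDP2 and 0.21 for E2F6. The first 4 fell with both siRNAs, further with siMEX3A_1. TFDP1, TFDP2 and E2F6 passed against NC with 1 siRNA each. The MEX3A difference between the siRNAs was -0.29 and did not pass (adjusted p = 0.212), and its part in these differences was not tested.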

How the results depend on the processing

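Each member's fold change in the 3 comparisons (30 values) was recomputed under 15 alternatives, of which adding pseudogene counts was chosen after seeing the data. Of these 450 values, 423 kept direction and call, 15 lost the call, 1 gained it and 11 changed sign. The lost calls were E2F4 and E2F5 with siMEX3A_2 and the E2F6 difference between the siRNAs, as given above. E2F5 gained a call in the direct comparison without siMEX3A_2 replicate 2 (0.31, edgeR adjusted p = 0.0416). The sign changes were in values near 0 that never passed. With library size as the only scaling and with a minimum mean of 50 counts, E2F3 (siMEX3A_1 minus siMEX3A_2) was at -0.0318 and -0.0066, E2F7 (same comparison) at -0.0349 and -0.0096, and TFDP2 (siMEX3A_1 minus NC) at -0.0487 and -0.0141. Leaving out 1 library, these ran from -0.0893 to 0.1223, from -0.1686 to 0.1826 and from -0.0345 to 0.0738. Members called numbered 8 throughout for siMEX3A_1, 6 to 8 for siMEX3A_2 and 6 or 7 in the direct comparison. Over all genes 7147 to 9892 were called. Deviations of same-numbered libraries correlated at -0.38 (NC and siMEX3A_1), 0.175 (NC and siMEX3A_2) and -0.0566 (siMEX3A_1 and siMEX3A_2) over 11584 genes. No common direction was seen, so numbers were not taken as pairs. With 2 libraries per group, -0.38 also means that unlike-numbered libraries of NC and siMEX3A_1 deviated together. A factor shared across groups without following the numbers was not tested. With the replicate block 8, 8 and 6 members and 9328, 8932 and 9101 genes were called. Members with few counts, E2F2 and E2F8 with siMEX3A_1, are limited by depth. Per-length shares depend on the transcript length, since E2F5 spans 1890 bases as its longest coding transcript and 5928 as all exons.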
